A study of Arabidopsis thaliana with 6 samples.

Results

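The cell wall growth genes of *Arabidopsis* are described here as 8 families, chosen by gene symbol, that loosen, remodel, coat or build the wall of growing cells. A gene was a member when its symbol named an expansin (EXPA, EXPB, EXLA or EXLB), a xyloglucan endotransglucosylase/hydrolase (XTH), a fasciclin-like arabinogalactan protein (FLA), an arabinogalactan protein (AGP), a cellulose synthase (CESA) or a cellulose synthase-like protein (CSL). Of 14276 genes named on the array, 61 were members, out of 150 genes of these families in the reference gene table. The other genes of these families were not analysed here. A gene is called measured where it had a named probe set, and probe sets left without a name may hold further genes. The 61 members were 12 EXPA, 4 EXPB, 4 EXLA or EXLB, 15 XTH, 5 FLA, 8 AGP, 1 CESA and 12 CSL genes, each with 1 named probe set.

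Shoots of wild-type Col-0 plants, labelled as whole rosettes, were profiled on Affymetrix ATH1 arrays, with 3 arrays from control plants and 3 arrays from salt-treated plants. All plants grew hydroponically in a short-day climate chamber, control plants in medium without NaCl and treated plants in medium with 150 mM NaCl for 4 d. The labels give an age of 28 d for every sample, and the methods start the treatment at that age, which would place the harvest at 32 d. Replicates are independent biological replications according to the methods, and whether an array held RNA of 1 plant or of several is not given in the sources used here.

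A growing plant cell is held in by a wall of cellulose fibres, which are tied together by xyloglucan and other hemicelluloses and embedded in pectin. Expansins let the wall creep without cutting its polymers, XTH enzymes cut and rejoin xyloglucan chains, and FLA and AGP proteins are sugar-rich proteins at the cell surface, of which the FLA proteins carry the fasciclin domain known from cell adhesion. CESA proteins make cellulose at the plasma membrane, and some CSL proteins, among them those of the CSLA and CSLC subfamilies, make the backbones of hemicelluloses in other compartments of the cell. Many of these genes are known for activity in young, expanding organs, and some members are known mainly from roots or root hairs. In whole shoots, fewer expanding cells and less RNA per cell cannot be told apart.

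Across named genes, control arrays correlated with each other at 0.992 to 0.997 and salt arrays at 0.979 to 0.987, where salt replicate 1 gave the lowest values. The control probe set for 25S ribosomal RNA was 2.19 higher in salt arrays (log2) and highest in salt replicate 1, and its part in the results was not tested. That for 5S ribosomal RNA had a difference of -0.82 with overlapping groups. For the gap between the 3 prime and 5 prime probe sets of actin and of GAPDH, salt minus control was 0.047 and 0.067. As a check of the labelled tissue, RCA, the gene of rubisco activase and the only one of 18 leaf markers with a named probe set, lay between 13.20 and 13.62 on the log2 scale in all 6 arrays. Of 14 root hair markers 4 were measured and none passed in limma, also at an unadjusted p under 0.05, and 2 of them lay below the 30th percentile of mean signal (5.23), as did 1 of 4 measured root markers.

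After 4 d of salt, 22 of the 61 wall growth genes were lower and 8 were higher, and 31 did not pass the test. Each difference is the salt mean minus the control mean of the log2 values, and a gene is said to have risen or fallen where limma gave an adjusted p under 0.05 over all named genes. Over all named genes 23.7% were called by the same rule, 12.3% lower and 11.4% higher, against 49.2%, 36.1% and 13.1% of the members. In the means alone, 15 members were at least 2-fold lower and 9 at least 2-fold higher, where 2.68% and 5.32% of all named genes were. The median difference was -0.14 over the 61 members and -0.027 over all named genes. The groups of arrays did not overlap for 29 members that were lower and 10 that were higher with salt, whereas 42.7% of all named genes showed such a separation, 23.8% lower and 18.9% higher. Without control replicate 1, and likewise without control replicate 2, 11 members were called lower and 6 higher, and all of these were among the members called with 6 arrays. Without them the counts over all named genes fell as well, to 500 lower and 837 higher without control replicate 1 and to 492 and 845 without control replicate 2.

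**Figure D1:**
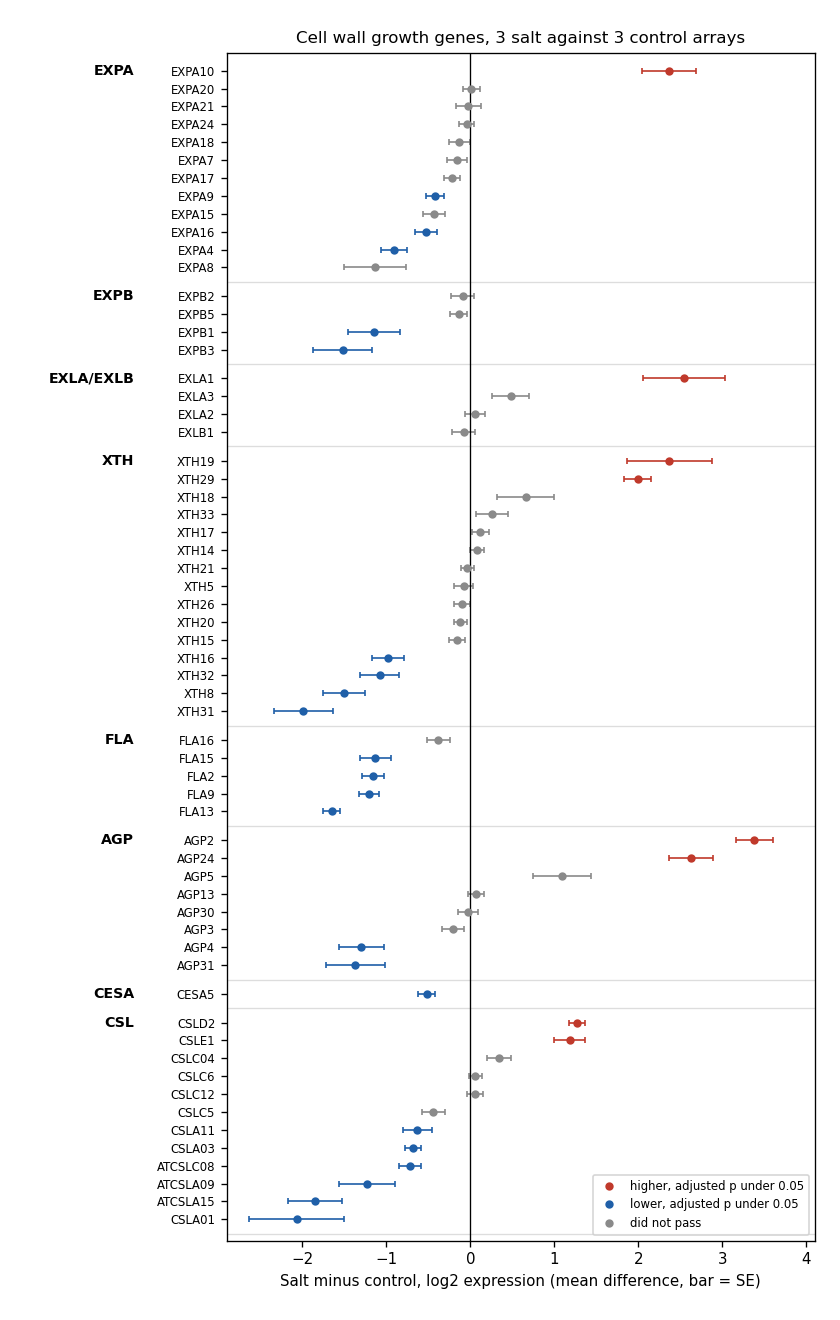
Difference between the means of 3 salt and 3 control arrays (log2 scale, horizontal axis) for each of the 61 wall growth genes, grouped by family, with the standard error from limma as a bar. Blue points are the 22 genes called lower, red points the 8 genes called higher and grey points the 31 that did not pass.

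The source of a gene's name bears on these counts. The platform annotation named 35 members, and the other 26 were named only through a supplementary list of H2O2-responsive genes from another experiment. All 5 FLA genes, all 8 AGP genes and CESA5 belong to the second group. So do EXPA10, EXPA17, XTH5, XTH8, XTH14, XTH15, XTH17, XTH31, ATCSLA09, ATCSLA15, CSLA11 and CSLE1. Of the 35 members named by the annotation, 10 were lower and 4 were higher, and among all 13355 genes named that way 22% were called, 12.3% lower and 9.65% higher. Of the 26 members named only through the H2O2 list, 12 were lower and 4 higher, whereas among all 921 genes named only that way 48.5% were called, 11.6% lower and 36.9% higher. These 26 members were more often lower than higher, and the 921 genes more often higher than lower. Genes of the list that the annotation also named are counted with the annotation. This split was not tested.

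**Figure D2:**
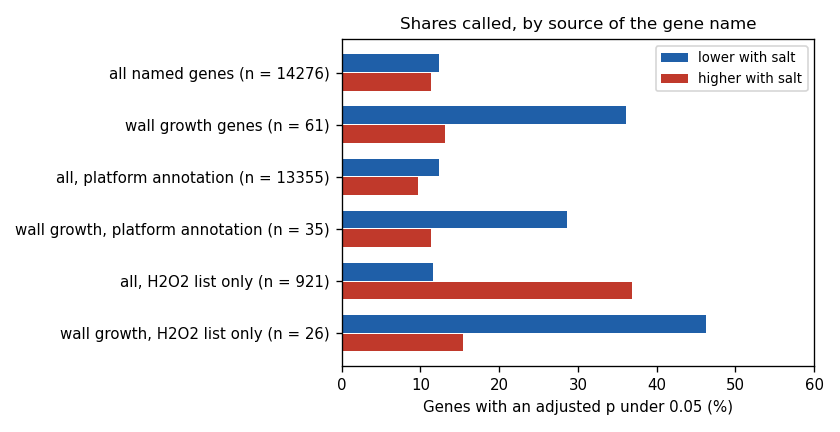
Share of genes (%) called lower (blue) or higher (red) with salt at an adjusted p under 0.05 from limma, for all named genes and for the wall growth genes, in all and by source of the gene name. Among genes named only through the H2O2 list, 46.2% of the 26 members were lower, and 11.6% of all 921 genes were.

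In the alpha-expansins, which loosen the wall in acid conditions, 3 of 12 measured genes fell and 1 rose. Beside the counts of this and each later family, 12.3% of all named genes fell and 11.4% rose. Among genes named only through the H2O2 list, as EXPA10 and EXPA17 were, 11.6% fell and 36.9% rose. EXPA10, known from leaf growth, had log2 values of 8.87, 9.12 and 8.79 in control replicates 1, 2 and 3 and of 12.08, 10.98 and 10.80 in the salt replicates. All salt arrays were higher than all control arrays, and salt replicate 1 was the highest. The rise of EXPA10 was 2.36 (SE 0.32, adjusted p = 0.0038 from limma), which is 5.13-fold. EXPA4 went the other way, from 8.98, 9.39 and 9.17 in control to 8.21, 8.51 and 8.10 in salt arrays. Its groups did not overlap and had the same spread, with a control mean of 9.18 ± 0.21 (SD, n = 3) and a salt mean of 8.27 ± 0.21 (SD, n = 3), and the difference was -0.91 (SE 0.15, adjusted p = 0.0072 from limma). EXPA16 fell by 0.53 (SE 0.13, adjusted p = 0.024), from 5.66, 5.78 and 5.80 to 5.24, 5.43 and 4.98. EXPA9 fell by 0.42 (SE 0.11, adjusted p = 0.034) and was chosen for naming after its values were seen. The call of EXPA16 was lost without control replicate 1, 2 or 3 (adjusted p up to 0.094), and that of EXPA9 without control replicate 1 or 3 or salt replicate 2 or 3 (adjusted p up to 0.13).

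EXPA8 did not pass, although its mean was more than 2-fold lower with salt. Its control values of 9.40, 9.31 and 9.37 lay close together, and the salt values were 7.44, 9.08 and 8.15. The groups did not overlap, but salt replicate 2 was near the control arrays and replicate 1 far below them. With a difference of -1.14 (SE 0.37, adjusted p = 0.064 from limma), EXPA8 missed the threshold. It passed without salt replicate 2 (difference -1.56, adjusted p = 0.0053), and with all 6 arrays under quantile normalization, both signal filters and array weights. EXPA15 had -0.43 (adjusted p = 0.058) and passed without salt replicate 2 (adjusted p = 0.021), under quantile normalization, median centring and the filter at the 50th percentile of signal. The other 6 alpha-expansins had differences between -0.22 and 0.01 and did not pass. Among them were EXPA7 and EXPA18, both known from root hairs, with -0.16 and -0.13, and EXPA17, EXPA24, EXPA21 and EXPA20. EXPA8, EXPA15 and these 6 genes were chosen for naming after their values were seen.

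Of 4 measured beta-expansins, relatives of the grass pollen expansins, 2 fell and none rose. EXPB3 had 8.59, 8.87 and 8.45 in control arrays and 6.56, 7.98 and 6.81 in salt arrays. EXPB1 followed with 7.93, 7.85 and 7.68 in control and 6.22, 7.46 and 6.33 in salt arrays. In both genes salt replicate 2 was the highest of the salt arrays and still below every control array. The differences were -1.52 (SE 0.35, adjusted p = 0.022 from limma) for EXPB3 and -1.15 (SE 0.31, adjusted p = 0.038 from limma) for EXPB1. Both calls were lost without any single control array and without salt replicate 3, and that of EXPB1 also without salt replicate 1 (adjusted p up to 0.089 and 0.12), while without salt replicate 2 the differences were -1.95 and -1.54. EXPB5, below the 30th percentile of signal, had -0.14 (adjusted p = 0.35), and EXPB2, named after its values were seen, -0.093 (adjusted p = 0.68).

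The expansin-like genes resemble expansins in sequence, but no wall-loosening activity is established for them. EXLA1 rose from 6.92, 7.11 and 7.52 in control arrays to 10.81, 8.66 and 9.70 in salt arrays, and it was the only one of 4 measured members that passed. Every salt array was above every control array, and the salt arrays spread over more than the distance between the control mean (7.18) and the lowest of them. The rise was 2.54 (SE 0.49, adjusted p = 0.013 from limma), or 5.82-fold, and the call was lost without control replicate 1 or 2 (adjusted p up to 0.057). EXLA3, which lies next to EXLA1 on chromosome 3 with no gene between them, had 4.34, 4.58 and 4.45 in control and 5.44, 4.55 and 4.83 in salt arrays. Its groups overlapped at low signal, and the difference of 0.48 (SE 0.22) did not pass (adjusted p = 0.16). EXLB1 had -0.08 (SE 0.14, adjusted p = 0.73) with a control mean of 8.93 ± 0.072 (SD, n = 3) and a salt mean of 8.85 ± 0.27 (SD, n = 3), and EXLA2, named after its values were seen, had 0.057.

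Of 15 measured XTH genes 4 fell and 2 rose. The largest fall was that of XTH31, of the XTH subgroup known for xyloglucan hydrolysis, from 8.39, 8.17 and 7.67 in control arrays to 5.93, 6.85 and 5.48 in salt arrays. The groups lay apart, and the difference was -1.99 (SE 0.35, adjusted p = 0.0094 from limma), a 3.97-fold lower mean. XTH32, of the same subgroup, had 10.01, 10.12 and 9.85 in control and 9.19, 9.18 and 8.36 in salt arrays, where replicate 3 was the lowest. XTH32 fell by 1.08 (SE 0.23, adjusted p = 0.016), and this call was lost without control replicate 1 or 2 (adjusted p up to 0.071). XTH8 fell from 8.69, 8.75 and 8.38 to 6.65, 7.64 and 7.02. Its groups did not overlap, and its difference of -1.50 (SE 0.25, adjusted p = 0.0073) passed with any array left out, as did that of XTH31. XTH16, named after its values were seen, fell by 0.98 (SE 0.19, adjusted p = 0.013), from 8.14, 8.53 and 8.41 to 7.13, 7.23 and 7.78, and this call was lost without control replicate 2 (adjusted p = 0.059).

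The XTH genes that rose started from low signal. XTH29 had 4.61, 4.53 and 4.35 in control arrays and 6.76, 6.18 and 6.52 in salt arrays, and XTH19, known from roots, had 4.20, 4.50 and 4.52 in control and 7.93, 5.63 and 6.76 in salt arrays. All salt arrays were above all control arrays in both genes, tightly so for XTH29 and loosely for XTH19. The rise of XTH29 was 1.99 (SE 0.16, adjusted p = 5.9e-04 from limma), and it passed with any array left out. XTH19 rose by 2.37 (SE 0.51, adjusted p = 0.018), and its call was lost without any single control array (adjusted p up to 0.073). Control means of both (4.50 and 4.41) lay below the 30th percentile of signal, so the sizes of these rises are less certain. XTH18, the neighbour of XTH19 on chromosome 4 with no gene between them, had 4.51, 4.75 and 4.68 in control and 6.15, 5.05 and 4.72 in salt arrays. There salt replicate 1 stood apart and the groups overlapped, and the difference of 0.66 (SE 0.34, adjusted p = 0.21) did not pass.

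The other 8 XTH genes had differences between -0.16 and 0.26, and none passed. They included XTH17, XTH20 and XTH21, known from roots, XTH14 and XTH26, known from root hairs, and XTH5, XTH15 and XTH33. For 5 of them, XTH5, XTH14, XTH20, XTH21 and XTH26, the mean signal lay below the 30th percentile. These genes and XTH18 were likewise chosen after their values were seen.

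Of 5 measured FLA genes 4 fell and none rose, with a median difference of -1.16, where 11.6% of all genes named only through the H2O2 list fell. Salt arrays lay apart from and below the control arrays in all 5 FLA genes, as they did in 23.8% of all named genes. FLA13 had 9.58, 9.76 and 9.71 in control arrays and 8.06, 8.13 and 7.91 in salt arrays. FLA9 had 9.33, 9.37 and 9.58 in control and 8.31, 8.00 and 8.35 in salt arrays. FLA2 had 9.50, 9.58 and 9.33 in control and 8.33, 8.51 and 8.08 in salt arrays. In each of these genes the gap between the groups was larger than the spread within either group. The differences were -1.65 (SE 0.10, adjusted p = 2.6e-04 from limma), -1.21 (SE 0.12, adjusted p = 0.0014) and -1.16 (SE 0.13, adjusted p = 0.0018), in the same order. FLA15, named after its values were seen, fell by 1.13 (SE 0.18, adjusted p = 0.0074), from 7.93, 8.05 and 7.54 to 6.83, 6.92 and 6.39. All 4 calls held with any array left out. FLA16 had 4.06, 3.85 and 3.96 in control and 3.36, 3.84 and 3.52 in salt arrays, all of them below the 30th percentile of mean signal. Its groups were apart by a margin as small as the rounding of the values, and the difference of -0.38 (SE 0.14, adjusted p = 0.085) did not pass, but did without salt replicate 2 (adjusted p = 0.02). Since every FLA gene measured came from the H2O2 list, these counts do not describe the 19 FLA genes of the reference table.

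AGP genes moved in both directions, with 2 of 8 measured members higher, 2 lower and 4 that did not pass. All 8 were named only through the H2O2 list, and among all genes named only that way 36.9% rose and 11.6% fell. AGP2, which encodes a classical arabinogalactan protein, had the largest difference of any wall growth gene. Its log2 values were 7.60, 7.44 and 7.04 in control arrays and 11.07, 10.82 and 10.33 in salt arrays, a rise of 3.38 (SE 0.22, adjusted p = 3.1e-04 from limma), or 10.4-fold. AGP24, one of the short arabinogalactan peptides, rose from 8.39, 8.70 and 8.30 to 11.64, 11.08 and 10.55, by 2.63 (SE 0.26, adjusted p = 0.0013), or 6.18-fold. In both genes all salt arrays were above all control arrays, with replicate 1 the highest and replicate 3 the lowest of the salt arrays, and both calls held with any array left out. AGP5 had 8.37, 8.12 and 9.08 in control and 10.30, 9.16 and 9.38 in salt arrays. Control replicate 3 came within 0.1 of the lowest salt array, and the difference of 1.09 (SE 0.35, adjusted p = 0.063) did not pass, but did without control replicate 3 (1.37, adjusted p = 0.049), with both signal filters and with array weights.

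AGP31 and AGP4 were the members that fell. AGP31, a non-classical arabinogalactan protein gene, had 9.12, 9.64 and 8.98 in control arrays and 7.09, 8.42 and 8.13 in salt arrays. AGP4 had 8.68, 8.73 and 8.24 in control and 6.64, 7.68 and 7.43 in salt arrays. Salt replicate 1 was the lowest in both, and no salt array reached the control arrays. AGP31 fell by 1.37 (SE 0.35, adjusted p = 0.031 from limma), and the mean of AGP4 was 2.46-fold lower (adjusted p = 0.017). Without control replicate 1 or 2 both calls were lost, that of AGP31 also without control replicate 3 (adjusted p up to 0.11 and 0.071). AGP3, AGP30 and AGP13 had differences between -0.21 and 0.067 and did not pass, the first 2 of them below the 30th percentile of signal. AGP4, AGP5 and these 3 genes were chosen for naming after their values were seen.

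The only CESA gene with a named probe set was CESA5, which takes part in cellulose synthesis of primary walls and of seed coat mucilage. It had 9.45, 9.43 and 9.32 in control arrays and 9.02, 8.88 and 8.75 in salt arrays. The groups did not overlap and the fall of 0.52 (SE 0.10, adjusted p = 0.012 from limma) was 1.43-fold, among the smaller changes that passed. This call was lost without control replicate 1 or 2 (adjusted p up to 0.062).

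Among the 12 measured CSL genes, of 30 in the reference gene table, 6 fell, 2 rose and 4 did not pass. These counts do not describe CSL genes without a named probe set. All 5 measured CSLA genes, whose products make mannan backbones, were lower with salt, with a median difference of -1.23. Of these, ATCSLA15, ATCSLA09 and CSLA11 were named only through the H2O2 list. CSLA01 had 8.49, 9.31 and 7.14 in control arrays and 5.76, 7.06 and 5.90 in salt arrays. The control arrays of CSLA01 differed by more than those of any other member, and control replicate 3 lay just above the highest salt array. It fell by 2.07 (SE 0.57, adjusted p = 0.04 from limma), the largest fall of any member, and the call was lost without control replicate 1 or 2 or salt replicate 1 or 3 (adjusted p up to 0.13). ATCSLA15 had 8.05, 8.43 and 7.31 in control and 5.65, 6.48 and 6.12 in salt arrays, with groups apart. Its difference of -1.85 (SE 0.32, adjusted p = 0.0085) held with any array left out.

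The other CSLA genes that fell were ATCSLA09, known for glucomannan synthesis in stems, CSLA03 and CSLA11. ATCSLA09 went from 8.93, 8.94 and 8.43 to 7.81, 8.04 and 6.76. CSLA03 went from 7.88, 7.81 and 7.96 to 7.34, 7.14 and 7.12, and CSLA11 from 6.58, 6.89 and 6.42 to 5.78, 6.27 and 5.94. None of them had overlapping groups, and CSLA03 had the tightest arrays. Their differences were -1.23 (SE 0.33, adjusted p = 0.037 from limma), -0.68 (SE 0.095, adjusted p = 0.0041) and -0.63 (SE 0.17, adjusted p = 0.034). The call of ATCSLA09 was lost without any single control array (adjusted p up to 0.13). That of CSLA11 was lost without control replicate 1 or 2 or salt replicate 1 or 3 (adjusted p up to 0.11). The call of CSLA03 held with any array left out.

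Of 5 measured CSLC genes, whose family makes the xyloglucan backbone, ATCSLC08 fell and 4 did not pass. ATCSLC08 went from 6.89, 7.09 and 6.74 to 5.98, 6.34 and 6.23, a difference of -0.72 (SE 0.13, adjusted p = 0.01 from limma) that held with any array left out. CSLC04, the best-known xyloglucan synthase gene, had 9.90, 9.78 and 9.89 in control and 10.46, 10.23 and 9.91 in salt arrays. Its groups lay apart by little, with salt replicate 3 at the control level, and the difference of 0.34 (SE 0.14, adjusted p = 0.13) did not pass, but did without salt replicate 3 (0.49, adjusted p = 0.026). CSLC5 had -0.44 (SE 0.14, adjusted p = 0.055) and passed without salt replicate 2 (adjusted p = 0.015), under quantile normalization, median centring, both signal filters and array weights. CSLC6 and CSLC12 both had a difference of 0.057 and overlapping groups.

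CSLD2 and CSLE1 were the CSL genes that rose. CSLD2, of a subfamily known from root hairs and other tip-growing cells, had 7.76, 7.70 and 7.68 in control arrays and 9.12, 8.96 and 8.88 in salt arrays. CSLE1, named only through the H2O2 list, had 9.05, 8.86 and 8.70 in control and 10.17, 9.68 and 10.31 in salt arrays. The arrays of CSLD2 were close together in each group, and both genes had groups that lay apart. Salt raised CSLD2 by 1.27 (SE 0.091, adjusted p = 4.4e-04 from limma), CSLE1 by 1.18 (SE 0.18, adjusted p = 0.0055), and both calls held with any array left out. Among the CSL genes, ATCSLA09, CSLA03, CSLA11, ATCSLC08, CSLC5, CSLC6, CSLC12 and CSLE1 were chosen for naming after their values were seen, and the subfamilies were set apart then as well.

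**Figure D3:**
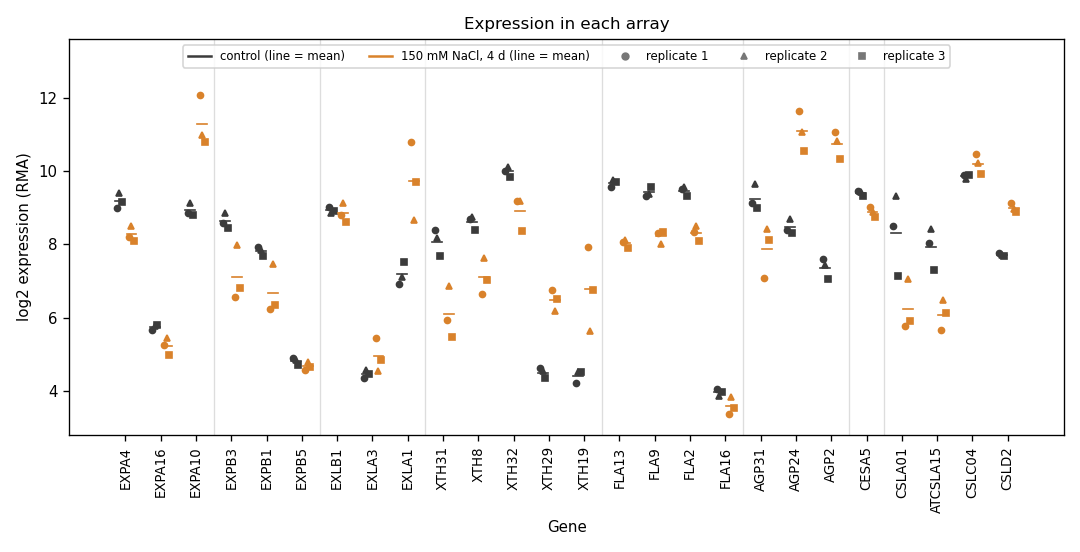
Log2 expression (vertical axis) of the 26 wall growth genes named by rule in each of 3 control arrays (dark) and 3 salt arrays (orange), with symbols for the replicates and a line for the group mean. EXPA10, EXLA1, XTH29, XTH19, AGP24, AGP2, CSLD2 and, narrowly, CSLC04 lie higher in every salt array, and the salt values of EXLA1 spread from 8.66 to 10.81.

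The salt arrays did not differ from control by the same amount. Among the 22 members that fell, salt replicate 2 was nearest to the control mean in 16, and replicates 1 and 3 were each the furthest in 10. Over all 1750 named genes that fell, salt replicate 2 was also the nearest most often (64.3%), but replicate 1 was the furthest in 68.6% and replicate 3 in 22%. Genes with the lowest value in salt replicate 3 included XTH31, XTH32 and ATCSLA09. Of the 8 members that rose, 7 had their highest value in salt replicate 1, as 67% of all named genes that rose did. The median SD over the 22 members that fell was 0.20 in control and 0.32 in salt arrays, and over the 8 that rose 0.18 and 0.46. The 25S ribosomal RNA signal was 10.24, 9.05 and 9.48 in salt replicates 1, 2 and 3 and 7.16, 7.20 and 7.84 in the control arrays. The distances of the salt arrays from the control mean had this same order, replicate 1 first, then 3, then 2, in 3 of the 8 members that rose (EXLA1, XTH19 and XTH29) and in 9 of the 22 that fell (EXPB3, EXPB1, XTH8, AGP31, AGP4, CSLA01, ATCSLA15, CSLA11 and ATCSLC08). Over all named genes it was found in 29.6% of those that rose and 46.1% of those that fell, and the part of this signal in the changes was not tested.

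**Figure D4:**
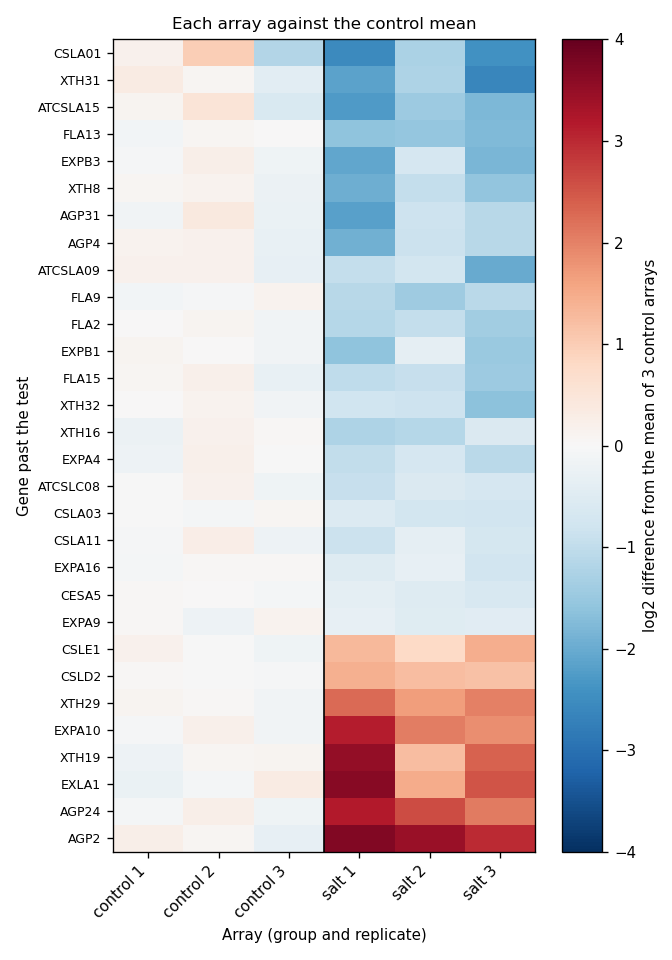
Log2 difference of each of the 6 arrays (columns) from the mean of the 3 control arrays for the 30 wall growth genes past the test (rows, ordered by their mean difference), with blue for lower and red for higher. The 22 genes that fell are blue and the 8 that rose are red in all 3 salt arrays, and salt replicate 2 is the palest in 16 of the 22.

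The members differed in how firmly they were measured. Of the 61 members 14 had a mean signal below the 30th percentile, and none of these passed in limma, where 3.76% of all named genes with such a signal did, 2.47% lower and 1.28% higher. At an unadjusted p under 0.05 there was 1 among the 14, and none was called with a robust variance trend. Of the 47 members above it 30 passed, or 22 lower and 8 higher, where 32.2% of named genes at that level passed, 16.5% lower and 15.8% higher. The mean is over both groups, so a gene of low control signal such as XTH29 or XTH19 stood above the limit through its salt arrays. Of the 30 members that passed, 16 did so with any single array left out, namely EXPA4, EXPA10, XTH31, XTH8, XTH29, FLA13, FLA9, FLA2, FLA15, AGP24, AGP2, ATCSLA15, ATCSLC08, CSLA03, CSLE1 and CSLD2. Among the 4 marker genes of this set, XTH31 and XTH8 fell, EXPA10 rose and FLA16 did not pass, so the 4 did not share a direction. All 4 were named only through the H2O2 list.

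Other genes of wall growth, listed by symbol outside these families, fell more often than they rose. Of 72 measured genes 18 were lower, 4 were higher and 50 did not pass, with a median difference of -0.10. The share lower was 25%, beside 12.3% of all named genes, and the share higher 5.56%, beside 11.4%. Some of the 72 genes were named only through the H2O2 list, among them GH9B1, TBL27, BGAL5 and MUR4 of those that passed. Among all genes named only that way 11.6% fell and 36.9% rose. The list took 3 genes by their symbol alone that have other roles, namely PMEAMT, which fell, and PRP39 and PRP39-2, which did not pass.

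The endoglucanases of family GH9, which trim glucan chains of the wall, had 6 of 17 genes lower and none higher. GH9B13 had 8.23, 9.35 and 8.67 in control arrays and 6.90, 7.49 and 7.09 in salt arrays, and GH9B1 had 7.82, 8.38 and 8.08 in control and 6.36, 6.92 and 6.77 in salt arrays. The groups were apart in both, and both calls held with any array left out, with differences of -1.59 (SE 0.29, adjusted p = 0.01 from limma) and -1.41 (SE 0.19, adjusted p = 0.0037). The other genes that fell were GH9C2 (-1.28), GH9B8 (2.29-fold lower), GH9B7 (-0.68) and, below the 30th percentile of signal, GH9B5 (-0.42). All 4 calls were lost without control replicate 1 or 2, that of GH9B7 also without control replicate 3 (adjusted p up to 0.11).

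Of 23 TBL genes, a family known for adding acetyl groups to wall polysaccharides, 9 fell and 2 rose. TBL26 had 10.13, 10.46 and 9.17 in control and 8.35, 7.96 and 7.19 in salt arrays, a difference of -2.09 (SE 0.40, adjusted p = 0.012 from limma) whose call was lost without control replicate 1 or 2 (adjusted p up to 0.054). TBL45 (-1.62), TBL28 (-1.24), TBL36 (-1.12) and TBL27 (-0.54) fell as well, and these calls held with any array left out. TBL27 is known for acetylating xyloglucan, the substrate of the XTH enzymes. TBL25 (-0.49), TBL35 (-0.44) and, below the 30th percentile of signal, TBL34 (-0.49) and TBL15 (-0.38) fell by less. TBL37 (0.98) and TBL38 (0.36) rose. These 6 calls were lost without single arrays, each without at least control replicate 1 or 2 (adjusted p up to 0.16), and that of TBL38 also under quantile normalization.

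Of 10 pectin genes on the list, PME61, of the pectin methylesterase family, fell by 0.84 (SE 0.18, adjusted p = 0.017 from limma, lost without control replicate 1 or 2) and ADPG1 rose. ADPG1, a polygalacturonase gene known from organ shedding and pod opening, had 3.70, 3.79 and 3.76 in control and 8.22, 8.76 and 8.35 in salt arrays, from below the 30th percentile of signal to far above it. Its rise of 4.69 (SE 0.14, adjusted p = 4.0e-05 from limma) was larger than that of any wall growth gene above, and it held with any array left out. As for XTH29 and XTH19, the low control signal makes the size of this rise less certain. MUR4, whose enzyme makes the arabinose donor used for pectin and for arabinogalactan proteins, rose from 7.64, 7.64 and 8.06 to 10.10, 9.53 and 9.40, by 1.90 (SE 0.21, adjusted p = 0.0017). Every salt array of MUR4 was above every control array, and the call held with any array left out. BGAL5, a beta-galactosidase gene, fell by 0.38 (adjusted p = 0.015, lost without any single control array). None of 7 extensin, proline-rich protein and LRX genes and none of 3 receptor kinase genes of wall sensing passed in limma, where 4 and 1 of them had an unadjusted p under 0.05 and 1 extensin gene, EXT12, was called with a robust variance trend. The 7 genes were all named only through the H2O2 list, and 4 of them lay below the 30th percentile of signal. EXT12 was among these 4, with means of 3.57 in control and 3.38 in salt arrays. For the kinases the differences were 0.39 for FER (adjusted p = 0.062), 0.29 for THE1 and -0.20 for HERK1.

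**Figure D5:**
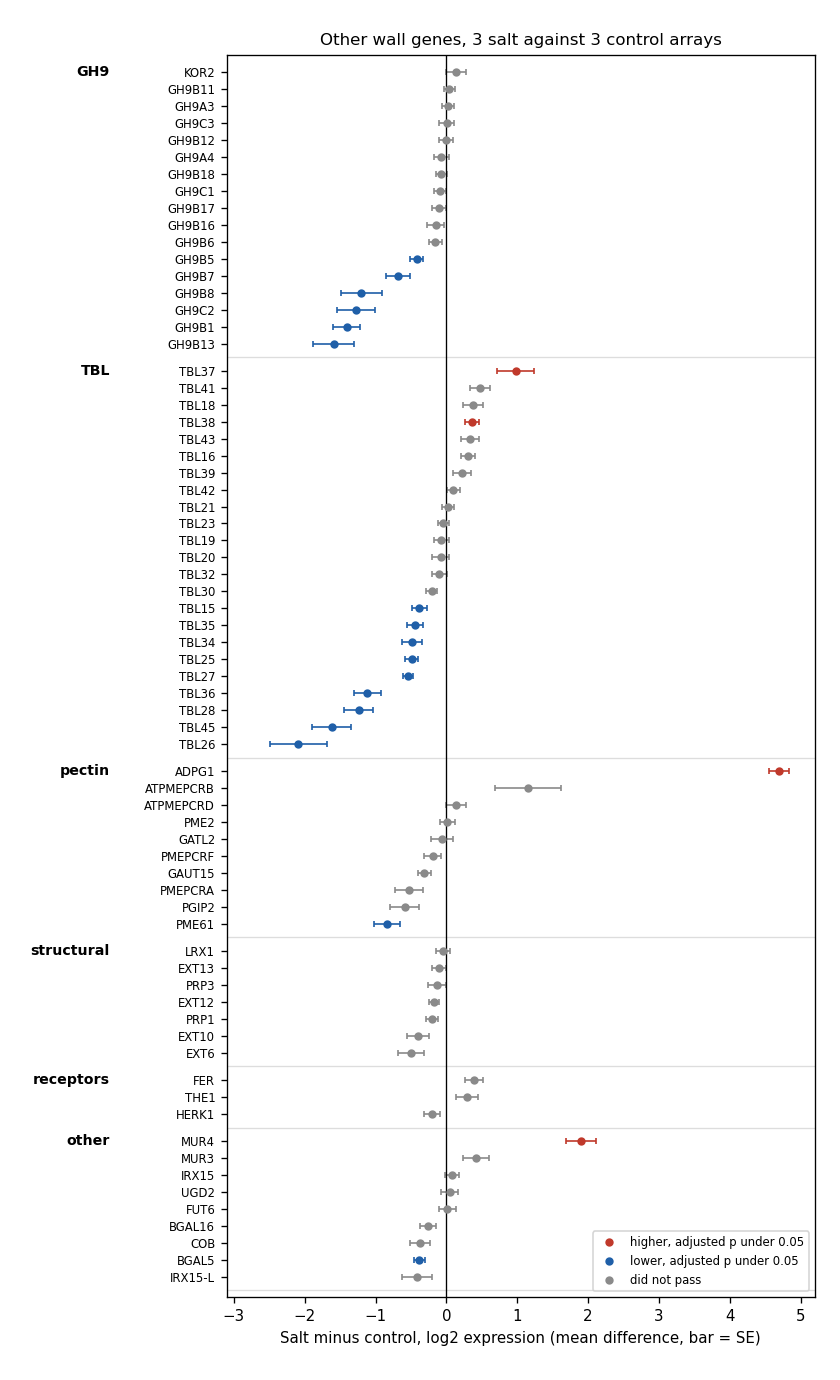
Difference between the means of 3 salt and 3 control arrays (log2 scale, horizontal axis) for 69 other wall genes, grouped by role, with the standard error from limma as a bar and the 3 genes taken by symbol alone left out. Blue points are 17 genes called lower, among them 6 of GH9 and 9 of TBL, and red points 4 genes called higher.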

How the data were processed

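The authors hybridized total RNA of 3 control and 3 salt-treated samples to Affymetrix ATH1 arrays, normalized the probe intensities by robust multiarray averaging (RMA), and deposited log2 expression values per probe set, rounded to 2 decimals. The submitters' processing notes also list GCRMA without a role, and versions are not given in the sources used here. The steps from probe intensities to these values were not repeated here.

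After removal of control probe sets 22746 remained. The platform annotation gave 13513 of them a single gene, and current symbols came by gene ID for 13436 of these from a reference gene table (assembly TAIR10.1), which served for names and gene order alone. The supplementary H2O2 list (1995 rows held here) named another 921. No name was used for 503 probe sets with more than 1 gene or for 7809 with none. The probe set with the highest mean stood for a gene. Salt and control were compared with limma (lmFit and eBayes, no pairing) and Benjamini-Hochberg adjustment over all 14276 genes. This step was also run on simulated arrays with the same spread in both groups, a setting that differs from these data. The median SD over all named genes was 0.086 in control and 0.16 in salt arrays. Genes were named by rule (4 markers, the 3 largest changes per family with those past the test first, and the highest signal per family), and others after their values were seen, as stated. The members, lists and this rule were chosen with earlier results of these data known.

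Same-numbered control and salt arrays did not deviate together, so the numbers were not taken as pairs. The precision is limited by having 3 arrays per group. Fits ran in limma 3.58.1 with statmod 1.5.0 under R 4.3.3, and tables and plots were made with pandas 2.3.3, matplotlib 3.10.9 and numpy 2.4.6 under Python 3.11.15. Alternatives were other normalizations, signal filters, naming rules and variance models, the replicate block and each array left out.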

Additional observations from a re-analysis of the deposited data

How the results depend on the processing

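With the platform annotation alone 10 wall growth genes were lower and 4 higher of 35 tested, since fewer genes were named, and with a 2-fold difference required beside the adjusted p 14 were lower. With 1 array left out, 11 to 25 members were lower and 6 to 9 higher. Under quantile normalization, median centring, both signal filters, array weights, a robust variance trend, and synonyms added to symbols, 21 to 25 members were lower and 7 to 9 higher, and no member that had passed and was tested there lost its call. EXLB1, which did not pass, ranged from -0.22 to 0.04 with 1 array left out, with 0.04 without salt replicate 3, and the cause was not tested. No other gene named by rule changed direction under any of these settings.

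With the replicate number as a block, 24 members were lower and 8 higher, all 30 members described above as risen or fallen among them, and over all named genes 1345 were lower and 1398 higher. Among the other wall genes TBL34, TBL15, TBL37 and TBL38 lost their calls with the block. Deviations of same-numbered control and salt arrays from their group means correlated at -0.12, 0.052 and -0.14, and not every array correlated best with its own number. The comparison of other probe sets of a gene gave no value, because each member had 1 named probe set. The number of arrays and signals near the lowest on the array limit what could be called among the 14 members of low signal.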

Other observations

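Genes of these families whose symbol in the reference table is another name were not counted as members. EXGT-A3, also called XTH27 and known from leaf veins, had log2 values of 10.44, 10.55 and 10.59 in control arrays and 11.85, 11.37 and 11.94 in salt arrays. The groups were apart, with a rise of 1.19 (SE 0.16, adjusted p = 0.0033 from limma). AT4G30380, also called EXLB2, had a difference of -0.02 (adjusted p = 0.92) at a signal below the 30th percentile.

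Among the markers of other cell types, MYB60, a transcription factor gene of guard cells, was the only one of 6 guard cell markers with a named probe set. MYB60 fell by 1.32 (SE 0.25, adjusted p = 0.012 from limma), and its part in the results was not tested. Of 7 epidermis and trichome markers, TRY, a regulator of trichome spacing, had -0.47 (adjusted p = 0.23). The symbol FDH on that list matched the formate dehydrogenase gene of the reference table and not the epidermal gene FIDDLEHEAD, so it was not read as a marker, and it rose by 1.98 (adjusted p = 1.9e-04). The only marker of the secondary wall with a named probe set, IRX15, had 0.08 (adjusted p = 0.60).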
